A study of Homo sapiens with 12 samples.

Results

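NR1H4, the gene of the farnesoid X receptor (FXR), was followed here with 9 other genes of nuclear receptors that control metabolism, in human proximal tubular cells (HPTC) exposed to an inflammatory cytokine or to a glucose transport inhibitor. The 10 genes were NR1H4, its corepressor partner NR0B2 (SHP), the liver X receptors NR1H3 (LXRα) and NR1H2 (LXRβ), PPARA, PPARD and PPARG, the shared dimer partner RXRA, the glucocorticoid receptor NR3C1 and the estrogen-related receptor ESRRA. They were taken by gene name from the array annotation, which gave 15 probes of 34127 and 10 gene names of 25992. The choice was made with values of these arrays known, and NR1H4 was chosen because IL-1β and Empa moved it in opposite directions, so the values of the 10 genes are a description without a test.

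RNA came from HK-2 cells, a proximal tubule line immortalized with papillomavirus genes, and from RPTEC/TERT1 cells, a proximal tubule line immortalized with telomerase. Each is a single immortalized line, cultured at normal glucose and starved of serum and supplements for 24 h. The cells were then left without a ligand (control), stimulated with IL-1β (10 ng/mL) or exposed to empagliflozin (Empa, 500 nM), an inhibitor of the glucose transporter SGLT2, for 24 h. No array combined IL-1β with Empa. Each of the 6 groups had 2 one-color Agilent arrays, described by the study as biological duplicates. The 12 arrays lie on 4 slides, and a slide holds the control, IL-1β and Empa array of one line and one replicate number.

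Nuclear receptors are transcription factors switched by small lipophilic ligands. FXR binds bile acids, raises the corepressor SHP and the bile acid exporters, and in this way slows bile acid synthesis. LXRα and LXRβ sense oxysterols and drive cholesterol efflux, the PPARs sense fatty acids and drive their oxidation, and all of these bind DNA together with RXR. ESRRA works with the coactivator PGC-1α on genes of mitochondrial respiration, and the glucocorticoid receptor is a ligand-switched brake on inflammation. In the kidney FXR is found in the proximal tubule, where fatty acid oxidation is the main source of energy.

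The measurements of NR1H4 and PPARG turn on 3 array probes of 60 bases, which are shown because every NR1H4 value rests on 1 of them and because PPARG has a pair that can be compared. Positions are those of the array annotation on hg19, and all 3 probes lie on the plus strand inside their gene. The sequences are in lower case throughout, 5′ to 3′, as no base of them is singled out.
NR1H4, probe A_23_P25396, chr12:100957191-100957250: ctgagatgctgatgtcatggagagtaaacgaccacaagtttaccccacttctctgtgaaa
PPARG, probe A_23_P252062, chr3:12458499-12458558: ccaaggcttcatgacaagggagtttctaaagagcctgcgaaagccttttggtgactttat
PPARG, probe A_33_P3350726, chr3:12434128-12434187: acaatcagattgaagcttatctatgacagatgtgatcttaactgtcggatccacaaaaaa
The NR1H4 probe lies in the part of the gene that encodes the ligand-binding domain. FXR isoforms differ at their amino end and in the hinge, so this probe reads them together. The first PPARG probe lies in the part for the ligand-binding domain and the second in the part for the DNA-binding domain, and neither separates the isoforms PPARγ1 and PPARγ2, which differ at their amino end.

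Before any result, the labels need a reservation. Over the 15324 probes that every array measured well above background, the control labelled HK2 1 correlated with the one labelled RPTEC 2 (r = 0.984) and HK2 2 with RPTEC 1 (r = 0.973), while arrays of the same line label correlated with r = 0.880 (HK2) and 0.875 (RPTEC). The IL-1β arrays (r = 0.984 and 0.982 across the labels) and the Empa arrays (r = 0.960 and 0.979) paired in the same way. The titles give 2 lines, another label field names HK-2 for every sample, and which slides hold which line cannot be told apart from these labels. The HK2 1 and RPTEC 2 slides are called slide pair A and the HK2 2 and RPTEC 1 slides slide pair B below. The fit across all genes used one coefficient for each slide and one for each treatment, so its coefficients do not rest on the line labels. The filter that set which genes were tested does use them. Differences between the pairs were seen in the data and were not tested.

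Values are background-subtracted brightness, scaled so that the 75th percentile of every array is 418.8 signal units. Levels are compared between arrays for one probe, never between probes. Only marker lists are summed over probes, and bright probes weigh most in such sums. Between 53.5% and 63.8% of an array's probes were well above background as the scanner software marks it, and the signals of the 15 probes were not saturated on any array. In bulk RNA, fewer cells that express a gene and less RNA per cell cannot be told apart. Of 12 proximal tubule markers fixed as a list, 8 were bright enough to test, among them LRP2, AQP1 and SLC5A2 on all 12 arrays, whereas CUBN was well above background on 1 array and VIL1 on none. With IL-1β, LRP2, SLC34A1 and SLC3A1 of these 8 markers fell (limma), and with Empa 0 passed, with 4 of the 8 at an unadjusted p under 0.05. The summed signal of the 8 ranged from 1385 to 19635 units in control arrays, from 895 to 2211 with IL-1β and from 944 to 24729 with Empa, and the part of this in the results below was not tested. None of 5 distal nephron markers could be tested, and UMOD among them was well above background on all 12 arrays with an outlier spot, whereas SLC12A1 was so on 6 and AQP2, CALB1 and SLC12A3 on none. Of 9 endothelial, leukocyte and stromal markers, 5 could be tested and 0 passed with IL-1β or Empa (limma, 0 and 1 at an unadjusted p under 0.05). Of 5 hepatocyte markers 3 could be tested and 0 passed with either (limma, 1 and 0 at an unadjusted p under 0.05), with ALB and TTR well above background on no array. The summed signal of these 3 was 1076 to 5763 units in control arrays, 6429 to 10758 with IL-1β and 860 to 3426 with Empa, which was not tested. Of 5 epithelial markers 3 could be tested. limma called 1 lower with IL-1β and 0 with Empa (2 and 1 at an unadjusted p under 0.05).

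limma with Benjamini-Hochberg adjustment over 15717 genes called 1955 genes for IL-1β (12.4%), with 4.52% of the genes tested higher and 7.91% lower. Of these calls 36.4% were higher, and with background correction by normexp and quantile normalization 48.5% were. Of 12 genes listed as a check of the IL-1β response, 11 could be tested and 10 rose, with CCL20, CXCL2 and IL6 among them. ICAM1 differed by 2.12 on the log2 scale and missed the threshold (adjusted p = 0.0514). For Empa limma called 1 gene (0.00636%), the dehydrogenase gene DHRS2, which rose by 2.73 on the log2 scale and is named after its value was seen, with 1887 genes at an unadjusted p under 0.05. The IL-1β count was 445 without the RPTEC 2 slide, 890 without the HK2 2 slide, 1084 without the HK2 1 slide and 1140 without the RPTEC 1 slide. It was 790 to 1268 without a control array (HK2 1, HK2 2, RPTEC 1 or RPTEC 2) or without the IL-1β array HK2 1 or RPTEC 2, and 2963 without the Empa array HK2 1. Within slide pair A it was 2499 (15.9%) and within slide pair B 1766 (11.2%), each with 2 residual degrees of freedom. By limma, the difference between the 2 line labels passed for 0 genes with either agent, and its unadjusted p was under 0.05 for 272 genes with IL-1β and 154 with Empa.

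The level of NR1H4 in unstimulated cells fell into 2 ranges. Its scaled signal in the control arrays was 654 units on the HK2 1 slide, 664 on the RPTEC 2 slide, 59.2 on the HK2 2 slide and 62.4 on the RPTEC 1 slide. Slide pair A was thus about an order of magnitude brighter than slide pair B, with 11.2-fold between the highest and the lowest control, whereas the slides within a pair were close to each other. The 4 controls spanned 3.49 on the log2 scale, a wider span than that of 94.6% of the genes tested, whose median span was 1.06.

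With IL-1β, NR1H4 was above control on each slide. The signal went from 654 to 1984 units on the HK2 1 slide, from 664 to 1617 on the RPTEC 2 slide, from 59.2 to 268 on the HK2 2 slide and from 62.4 to 174 on the RPTEC 1 slide. The folds over control were 3.03, 2.44, 4.52 and 2.79 in that order, so the relative change was of like size where the receptor was bright and where it was dim. The highest stimulated signal of slide pair B was still below the lowest control signal of slide pair A. Over the 4 slides the difference was 1.64 ± 0.38 on the log2 scale (SD, n = 4 slides), a mean of 3.11-fold. It was 1.44 on average in slide pair A and 1.83 in slide pair B. The mean over the 4 slides was 1.29 with normexp and 1.30 in the authors' table, with all 4 slides above control in each. With normexp the HK2 1 and RPTEC 2 slides differed by 1.47 and 1.18. The HK2 2 and RPTEC 1 slides differed by 1.58 and 0.93 there, so slide pair B was not clearly higher.

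With Empa, NR1H4 was below control on each slide. The signal went to 246 units on the HK2 1 slide, 208 on the RPTEC 2 slide, 28.3 on the HK2 2 slide and 15.1 on the RPTEC 1 slide. These were 2.66-, 3.19- and 2.09-fold below the control, and on the RPTEC 1 slide, where the Empa array was not well above background, at least 4.13-fold below it. The mean difference was -1.55 ± 0.42 on the log2 scale (SD, n = 4 slides). The size of this change depended on the background correction: it was -0.81 with normexp and -0.78 in the authors' table, which correspond to 1.75- and 1.71-fold, although all 4 slides stayed below control in each. With normexp the differences of slide pair B shrank to -0.21 on the HK2 2 slide and -0.62 on the RPTEC 1 slide, and in the authors' table to -0.29 and -0.70, so the bound of 4.13-fold holds on the main scale only. The comparisons with IL-1β and with Empa share the control arrays. A rise with IL-1β together with a fall with Empa on every slide was seen in 207 of the genes tested (1.32%), and NR1H4 was picked from among these.

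**Figure D1:**
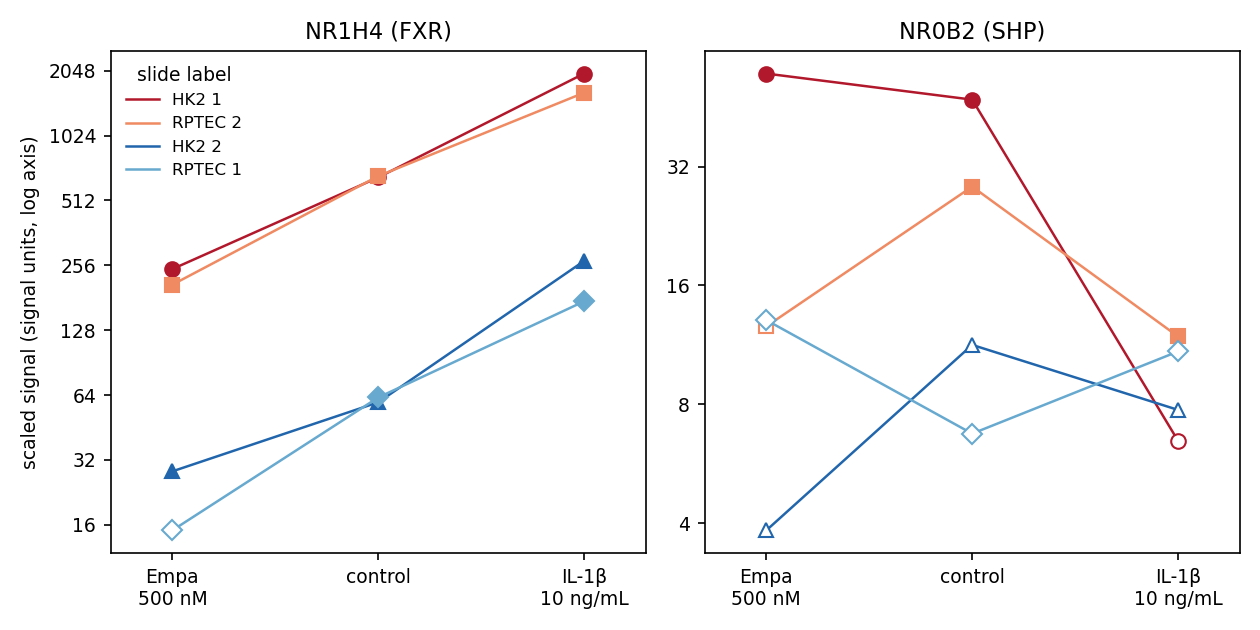
Scaled signal of NR1H4 (left) and NR0B2 (right) in Empa, control and IL-1β arrays, in signal units on a log axis. Points are single arrays, lines join the arrays of a slide, and open symbols mark arrays on which the probe was not well above background. NR1H4 rises from Empa over control to IL-1β on all 4 slides, with the HK2 1 and RPTEC 2 slides at 654 and 664 units in control and the other slides at 59.2 and 62.4, while all NR0B2 points of the dimmer slides are open.

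NR0B2 encodes SHP, the corepressor that FXR induces in liver and gut. Its probe was dim and was well above background on 4 of the 12 arrays. It did not enter the fit, which asked for both arrays of a group, by line label and treatment, to be well above background. That rule depends on the line labels, and the control arrays of slide pair A, which carry different labels, both were. In control the signal was 47.3 units on the HK2 1 slide and 28.5 on the RPTEC 2 slide, and it was not well above background on the HK2 2 and RPTEC 1 slides. The brighter controls were therefore those of slide pair A, as for NR1H4. With IL-1β the HK2 1 array was not well above background, which puts it at least 6.05-fold below its control on this scale, and the RPTEC 2 array read 11.9 units. The size does not hold under other background corrections, where the HK2 1 difference was -0.62 (normexp) and -0.14 (the authors' table) on the log2 scale. The Empa array of the HK2 1 slide read 55.0 units, and that of the RPTEC 2 slide was not well above background, at least 2.26-fold below its control. In slide pair A, NR0B2 was thus below control with IL-1β and NR1H4 above it. A mean over the 4 slides would rest on arrays that did not measure the gene, and in the authors' table that mean was -0.07 on the log2 scale with IL-1β.

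The target genes of FXR were mostly not above background. Of 15 listed targets, 4 could be tested and 8 were well above background on no array. The other 3 were well above background on up to 5 arrays. Among the 8 were SLC51A and SLC51B, the basolateral bile acid exporter, ABCB11, the canalicular export pump, and FGF19, the hormone that reports bile acids from gut to liver. The 4 testable targets, SDC1, PLTP, DDAH1 and SLC27A5, included none past the threshold in either direction with IL-1β or with Empa (limma, 0 of 4 also at an unadjusted p under 0.05). Their median difference with IL-1β was -0.60 on the log2 scale, beside -0.11 over all genes. These 4 genes are named because they were the ones measured.

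The median hides a split between the slides. DDAH1, which degrades methylarginines that inhibit nitric oxide synthesis, differed by -1.79 on the HK2 1 slide and -1.95 on the RPTEC 2 slide, but by 0.70 on the HK2 2 slide and 0.02 on the RPTEC 1 slide. SDC1, a heparan sulfate proteoglycan, differed by -1.30 and -0.94 in slide pair A and by 0.13 and -0.03 in slide pair B. SLC27A5, which joins bile acids to coenzyme A, differed by -1.15 and -1.16 in slide pair A and by -0.11 and -0.22 in slide pair B. PLTP, the phospholipid transfer protein, differed by 1.03 and 2.88 in slide pair A and by -0.59 and 0.17 in slide pair B, with 8 arrays well above background. A fit of slide pair A alone, chosen after the data were seen, called all 4 with IL-1β (SDC1, DDAH1 and SLC27A5 lower, PLTP higher), beside 15.9% of all genes. The same fit of slide pair B called none of the 4.

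Of 14 listed genes of bile acid synthesis, uptake and sensing 5 could be tested, and with IL-1β 3 of them fell. limma called 3 lower and 0 higher, beside 7.91% of all genes lower and 4.52% higher, with a median difference of -0.64 on the log2 scale beside -0.11 over all genes. AMACR, the racemase that prepares the side chain of bile acid precursors for shortening, fell by 1.94 (adjusted p = 0.014). Its difference was -0.91 and -0.96 on the HK2 1 and RPTEC 2 slides and -3.12 and -2.79 on the HK2 2 and RPTEC 1 slides. The call was lost without the control array HK2 2 and without the HK2 2 or the RPTEC 1 slide (adjusted p up to 0.0701). HSD3B7, an enzyme of the sterol ring, fell by 0.84 (adjusted p = 0.0438), and FGFR4, the receptor for FGF19, fell by 0.64 (adjusted p = 0.0348). Both were lower on all 4 slides, but HSD3B7 stayed past the threshold in 4 of 16 fits that left out an array or a slide and FGFR4 in 3 of 16, so these calls rest on having all the arrays. The enzymes CYP7A1, CYP8B1 and CYP7B1 and the importers SLC10A1 and SLC10A2 were well above background on no array. Empa moved none of the 5 past the threshold (limma, 1 at an unadjusted p under 0.05).

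The liver X receptor NR1H3 was lower with IL-1β on every slide. Its control signals lay close together, at 706 units on the HK2 1 slide, 848 on the RPTEC 2 slide, 711.99 on the HK2 2 slide and 569 on the RPTEC 1 slide. With IL-1β they were 385, 444, 303 and 284 units in the same order. The IL-1β arrays all lay below the lowest control array, and the folds were 1.84, 1.91, 2.35 and 2.00 below control. The mean difference was -1.01 ± 0.16 on the log2 scale (SD, n = 4 slides), the smallest SD among the 10 genes for IL-1β apart from ESRRA. With Empa the signals were 758, 599, 498 and 491 units, above control on the HK2 1 slide and below it on the others, and the mean difference was -0.28 ± 0.29 (SD, n = 4 slides).

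NR1H2, the widely expressed LXR, had no common direction with IL-1β. From 217, 180, 264 and 180 units in control on the HK2 1, RPTEC 2, HK2 2 and RPTEC 1 slides it went to 321, 297, 144 and 187 units. It was thus higher in slide pair A (0.56 and 0.72 on the log2 scale), lower on the HK2 2 slide (-0.87) and nearly level on the RPTEC 1 slide (0.05). With Empa it read 111, 169, 145 and 163 units, below control on all 4 slides, but by only 0.09 and 0.14 on the log2 scale on the slides labelled RPTEC. Its mean difference with Empa was -0.51 ± 0.46 (SD, n = 4 slides). In the authors' table the mean was -0.25 and the RPTEC 2 slide was above control (0.05).

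Among 14 listed LXR targets 9 could be tested, and with IL-1β limma called 2 lower and 0 higher, beside 7.91% and 4.52% of all genes. MYLIP, the ligase that LXR uses to remove the LDL receptor, fell by 1.54 on the log2 scale (adjusted p = 0.00455, 0.0539 without the RPTEC 2 slide), with -2.16 and -2.02 in slide pair A, -0.69 on the HK2 2 slide and -1.27 on the RPTEC 1 slide. APOE, the lipoprotein ligand, fell by 0.81 (adjusted p = 0.0198) and was lower on all 4 slides. It stayed past the threshold in 9 of 16 fits that left out an array or a slide, with adjusted p up to 0.147. ABCA1, the cholesterol exporter that is the best known LXR target, did not pass (adjusted p = 0.876), and its mean of 0.15 stood for opposite values. It differed by -0.93 and -0.97 in slide pair A and by 1.15 and 1.37 on the HK2 2 and RPTEC 1 slides, and a fit of slide pair B alone called it higher (1.26, adjusted p = 0.0115). SREBF1, the lipogenic regulator, differed by 0.03 (adjusted p = 0.959). ABCG1, the other sterol exporter, was well above background on 1 array. The median of the 9 was -0.01 beside -0.11 over all genes, and Empa moved none of them past the threshold (limma, 1 at an unadjusted p under 0.05).

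**Figure D2:**
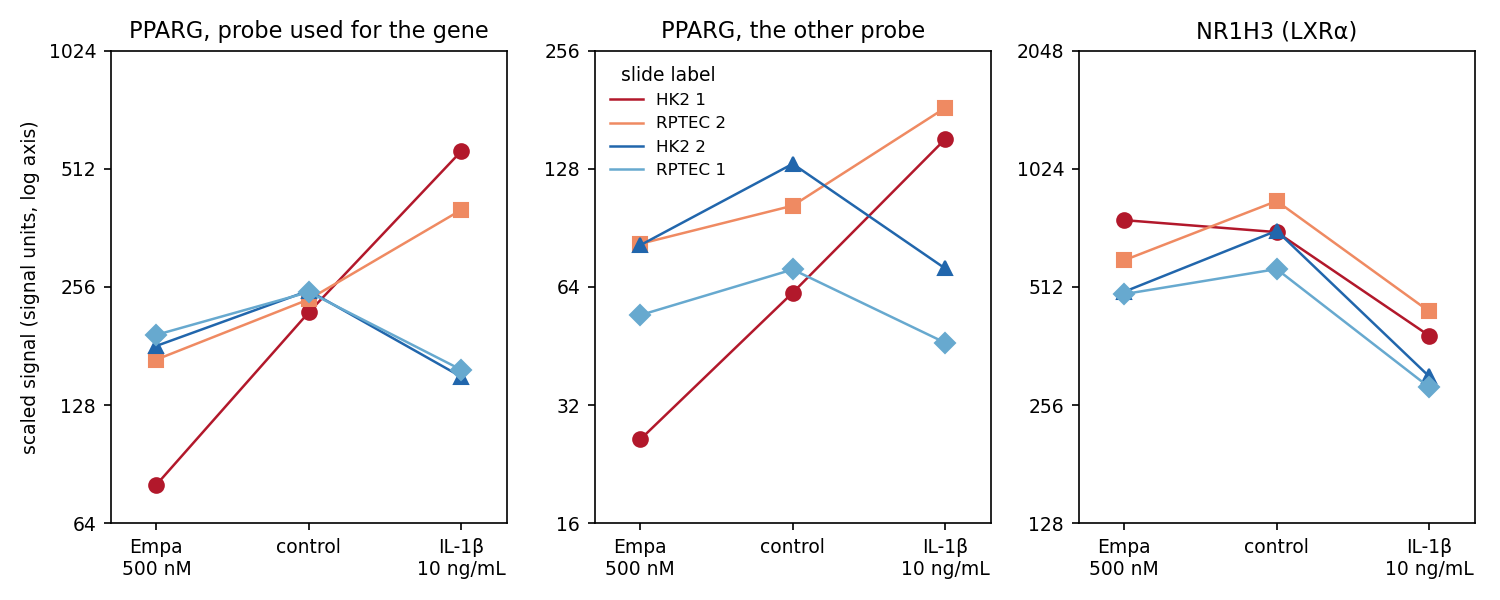
Scaled signal of the pair of PPARG probes (left and middle) and of NR1H3 (right) in Empa, control and IL-1β arrays, in signal units on a log axis. Points are single arrays and lines join the arrays of a slide. Each PPARG probe is above control with IL-1β on the HK2 1 and RPTEC 2 slides and below it on the HK2 2 and RPTEC 1 slides, while NR1H3 is below control with IL-1β on all 4 slides.

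PPARG lay on opposite sides of control in the slide pairs with IL-1β. With the brighter of its probes the control signals were nearly equal, at 221 units on the HK2 1 slide, 238 on the RPTEC 2 slide, 250.4 on the HK2 2 slide and 248 on the RPTEC 1 slide, and only 1.29% of the genes tested had a smaller span over the controls. The second probe was less even, with controls from 61.9 to 132 units. With IL-1β the signal went to 567 and 402 units on the HK2 1 and RPTEC 2 slides, 2.57- and 1.69-fold above control. It went to 151 and 157.5 units on the HK2 2 and RPTEC 1 slides, 1.66- and 1.58-fold below control. The stimulated arrays of the pairs did not overlap. The share of all genes that split between the pairs in this way was not counted, so the split is not shown to be particular to PPARG. The same holds for the splits of DDAH1, ABCA1 and ANGPTL4. The second probe gave the same signs at 1.30, 0.83, -0.89 and -0.62 on the log2 scale, against 1.36, 0.76, -0.73 and -0.66 for the first. The mean over the 4 slides, 0.18 ± 1.04 (SD, n = 4 slides), describes none of them.

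With Empa the PPARG signal was below control on every slide. The arrays read 80.2, 167, 181 and 193 units on the HK2 1, RPTEC 2, HK2 2 and RPTEC 1 slides, 2.75-, 1.42-, 1.38- and 1.29-fold below control, and the second probe was below control by 2.37-, 1.25-, 1.61- and 1.31-fold. The mean difference was -0.70 ± 0.51 on the log2 scale (SD, n = 4 slides) for the first probe and -0.66 ± 0.42 for the second. The HK2 1 slide gave the largest difference with each probe on this scale. With normexp it was still the largest for the first probe, at -0.84 beside -0.38 on the RPTEC 2 slide. In the authors' table the HK2 1 slide gave -0.37 and the RPTEC 2 slide -0.40, with a mean of -0.35. On the main scale the mean of the first probe was -0.45 without the HK2 1 slide and -0.25 in the fit without its Empa array alone.

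PPARA, the main driver of fatty acid oxidation, was level with IL-1β in slide pair A, from 236 to 240.1 units and from 152 to 158. It was lower in slide pair B, from 109 to 68.5 units on the HK2 2 slide and from 112 to 77.2 on the RPTEC 1 slide. The mean was -0.28 ± 0.38 on the log2 scale (SD, n = 4 slides). With Empa it read 164, 172.5, 106.5 and 127 units in the order HK2 1, RPTEC 2, HK2 2 and RPTEC 1, with no common direction. Its other probe was not well above background on any array.

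PPARD, the most broadly expressed PPAR, was lower with IL-1β on all 4 slides. It went from 771 to 567 units on the HK2 1 slide, from 675 to 594 on the RPTEC 2 slide, from 1285 to 694 on the HK2 2 slide and from 1183 to 772 on the RPTEC 1 slide. The difference was larger in slide pair B (1.85- and 1.53-fold) than in slide pair A (1.36- and 1.14-fold), and the mean was -0.53 ± 0.30 on the log2 scale (SD, n = 4 slides). With Empa it went to 1588 and 970.3 units in slide pair A, 2.06- and 1.44-fold above control, and to 1097 and 1116 units in slide pair B, slightly below control. The mean difference with Empa was 0.31 ± 0.59 (SD, n = 4 slides), and it was 0.07 without the HK2 1 slide. The other PPARD probe was well above background on 5 arrays only and gave 0.20 for IL-1β.

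Over all 4 slides no PPAR target passed the threshold. Of 22 listed genes 13 could be tested, and limma called 0 for IL-1β (5 at an unadjusted p under 0.05) and 0 for Empa (1 at an unadjusted p under 0.05), with medians of -0.21 and 0.07 on the log2 scale beside -0.11 and -0.02 over all genes. PDK4, which shuts pyruvate out of the mitochondria, was below control with IL-1β on all 4 slides (-0.75, adjusted p = 0.141) and passed in slide pair B alone (-1.07, adjusted p = 0.0189). CPT1A, the gate for fatty acids into mitochondria, was also below on all 4 (-0.69, adjusted p = 0.107), with 7 arrays well above background. ANGPTL4, an inhibitor of lipoprotein lipase and a target of every PPAR, split as PPARG did, with 1.35 and 1.85 in slide pair A and -1.02 and -0.65 on the HK2 2 and RPTEC 1 slides. Its mean was 0.38 (adjusted p = 0.677), and it passed in slide pair A alone (1.60, adjusted p = 0.00943). ACSL1, which activates fatty acids and is named after its value was seen, also passed in slide pair A alone (-1.30, adjusted p = 0.0349). The fit without the Empa array HK2 1 called 2 of the 13 with IL-1β, and those without the control array RPTEC 1, with normexp or with the authors' table called 1.

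RXRA, the partner that FXR, LXR and the PPARs share, differed little from control. With IL-1β it went from 1428 to 1402 units on the HK2 1 slide, from 1922 to 1759 on the RPTEC 2 slide, from 1267 to 1194 on the HK2 2 slide and from 1216 to 812 on the RPTEC 1 slide. It was below control on all 4 slides, but by over 0.2 on the log2 scale on the RPTEC 1 slide alone (-0.58), and the mean was -0.21 ± 0.25 (SD, n = 4 slides). With normexp and in the authors' table the HK2 2 slide was above control (0.07 and 0.03). With Empa the mean was 0.09 ± 0.27 (SD, n = 4 slides), with the RPTEC 2 slide below control. RXRB differed by -0.44 with IL-1β (adjusted p = 0.192) and by -0.41 with Empa (adjusted p = 0.447). Of 18 listed coregulators 16 could be tested, and limma called 0 for IL-1β and 0 for Empa (3 at an unadjusted p under 0.05 for each), NRIP1 included (-0.05 with IL-1β, adjusted p = 0.916).

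**Figure D3:**
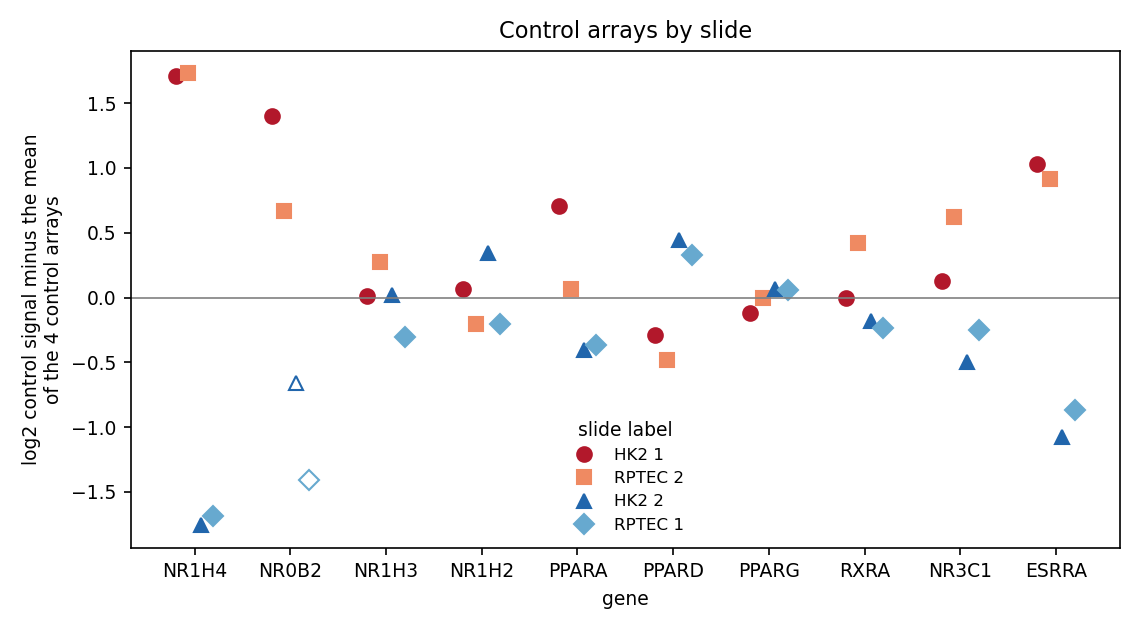
Control arrays of the 10 receptor genes, each point being the log2 signal of a slide's control array minus the mean of the 4 control arrays for that gene, so that genes are not compared with each other. Open symbols mark arrays on which the probe was not well above background. NR1H4, NR0B2 and ESRRA are brighter on the HK2 1 and RPTEC 2 slides than on the others, PPARD is dimmer there, and the PPARG points nearly coincide.

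ESRRA, the estrogen-related receptor that acts with PGC-1α, was brighter in slide pair A in unstimulated cells. Its control signal was 692 units on the HK2 1 slide and 637 on the RPTEC 2 slide, against 161 on the HK2 2 slide and 186 on the RPTEC 1 slide, 4.30-fold apart between the HK2 slides and 3.43-fold between the RPTEC slides. The other ESRRA probe gave 3.89- and 3.11-fold. With IL-1β the mean difference was 0.10 ± 0.13 on the log2 scale (SD, n = 4 slides), the smallest SD among the 10 genes, so the receptor was close to level on each slide, while the other probe was above control on all 4 with a mean of 0.35. With Empa the signal went to 410, 342, 122 and 191 units in the order HK2 1, RPTEC 2, HK2 2 and RPTEC 1, below control on 3 slides and level on the last. The other ESRRA probe had an outlier spot on the HK2 1 slide and was not used for the gene, and its mean difference with Empa was -0.27. By slide it was level on the HK2 1 slide and -0.18, -0.60 and -0.28 on the RPTEC 2, HK2 2 and RPTEC 1 slides. The probe used gave -0.76 on the HK2 1 slide and -0.90, -0.40 and 0.04 on those slides, so the probes differ in their slide pattern.

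The coactivator PPARGC1A (PGC-1α) fell with IL-1β by 1.56 on the log2 scale (adjusted p = 0.00175) and was lower on all 4 slides, with -1.33, -1.23, -2.03 and -1.66 on the HK2 1, RPTEC 2, HK2 2 and RPTEC 1 slides. The call held in all 16 fits that left out an array or a slide. CYCS, cytochrome c, rose by 0.79 (adjusted p = 0.0141) and stayed past the threshold in 11 of these 16. These were the calls, 1 lower and 1 higher, among 12 tested of 13 genes listed for ERR and PGC-1, beside 7.91% and 4.52% of all genes. The median of the 12 was 0.07 with IL-1β beside -0.11 over all genes. Empa moved none past the threshold (limma, 2 at an unadjusted p under 0.05), and PPARGC1A differed by -0.56 (adjusted p = 0.34).

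The glucocorticoid receptor gene NR3C1 was higher with Empa on all 4 slides, by little on some. Its control signals were 1193, 1677, 772 and 916 units on the HK2 1, RPTEC 2, HK2 2 and RPTEC 1 slides, and the Empa arrays read 1759, 1958, 1096 and 952 units. The folds were 1.47, 1.17, 1.42 and 1.04, and the mean difference was 0.34 ± 0.24 on the log2 scale (SD, n = 4 slides). The second NR3C1 probe was also above control on all 4 slides, with a mean of 0.43 ± 0.23. With IL-1β the mean was 0.02 ± 0.28, above control on the slides labelled HK2 and below it on those labelled RPTEC.

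Of 15 listed glucocorticoid receptor targets 13 could be tested, and with IL-1β limma called 3 higher and 2 lower, beside 4.52% of all genes higher and 7.91% lower. SGK1, a kinase that raises sodium transport, rose by 2.17 on the log2 scale (adjusted p = 0.000527), with 2.45 and 2.43 in slide pair A and 2.06 and 1.72 in slide pair B. NFKBIA, the inhibitor of NF-κB, rose by 3.69 (adjusted p = 0.00151) and is also on the list of IL-1β response genes. CRISPLD2, a secreted protein, fell by 2.71 (adjusted p = 0.0195) and was well above background on 7 arrays. It stayed past the threshold in 11 of 16 fits that left out an array or a slide, while SGK1 and NFKBIA did so in all 16. ERRFI1, a feedback inhibitor of the EGF receptor, rose by 0.82 (adjusted p = 0.0394) and ZBTB16, a zinc finger repressor, fell by 0.91 (adjusted p = 0.0166), both named after their values were seen. FKBP5 and TSC22D3, commonly used readouts of the receptor, did not pass and were below control on all 4 slides (-0.50, adjusted p = 0.147, and -0.52, adjusted p = 0.151). KLF9, a Krüppel-like factor that glucocorticoids induce, is named after its value was seen. Over all 4 slides it did not pass (0.19, limma adjusted p = 0.776). When the slide pairs were fitted alone, each with 2 residual degrees of freedom, KLF9 was called in opposite directions. It differed by 1.18 (limma adjusted p = 0.0366) in slide pair A and by -0.79 (limma adjusted p = 0.0307) in slide pair B. The share of all genes called in this way was not counted, so the split is not shown to be particular to KLF9. Empa moved none of the 13 past the threshold (limma, 1 at an unadjusted p under 0.05).

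**Figure D4:**
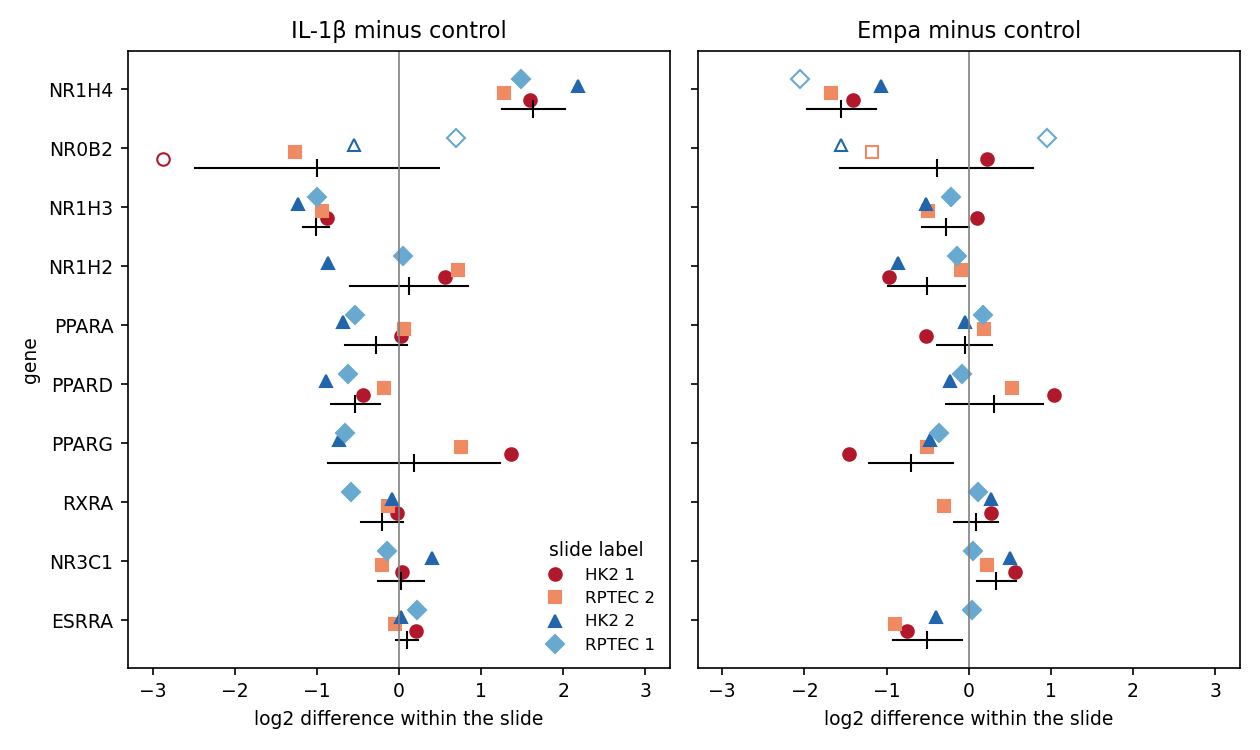
Difference from the control array of the same slide on the log2 scale, with IL-1β (left) and Empa (right), for the probe used for each of the 10 receptor genes. Colored points are slides, open where the probe was not well above background on 1 of the 2 arrays or on both, and the black bar is the mean with 1 SD over the 4 slides. NR1H4 lies at 1.64 with IL-1β and at -1.55 with Empa, NR1H3 at -1.01 with IL-1β, and the PPARG slides lie on either side of 0 with IL-1β.

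Of the 10 genes, 9 entered the fit. With IL-1β limma called 1 higher, NR1H4, where 4.52% of all genes were called higher, and 1 lower, NR1H3, where 7.91% were called lower, and with Empa it called 0. As the genes were chosen on these contrasts, nothing is read from these counts. With IL-1β 4 of the 9 kept one direction on all 4 slides (39.9% of all genes did), 1 above control (15%) and 3 below it (24.9%), namely NR1H3, PPARD and RXRA. With Empa 4 of the 9 did so as well (26.4%), NR3C1 above control (12.5%) and NR1H4, NR1H2 and PPARG below it (13.9%). The common direction of RXRA with IL-1β and that of NR1H2 with Empa was lost in the authors' table, and that of RXRA also with normexp. The median difference of the 9 was 0.02 with IL-1β and -0.28 with Empa, beside -0.11 and -0.02 over all genes.

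**Figure D5:**
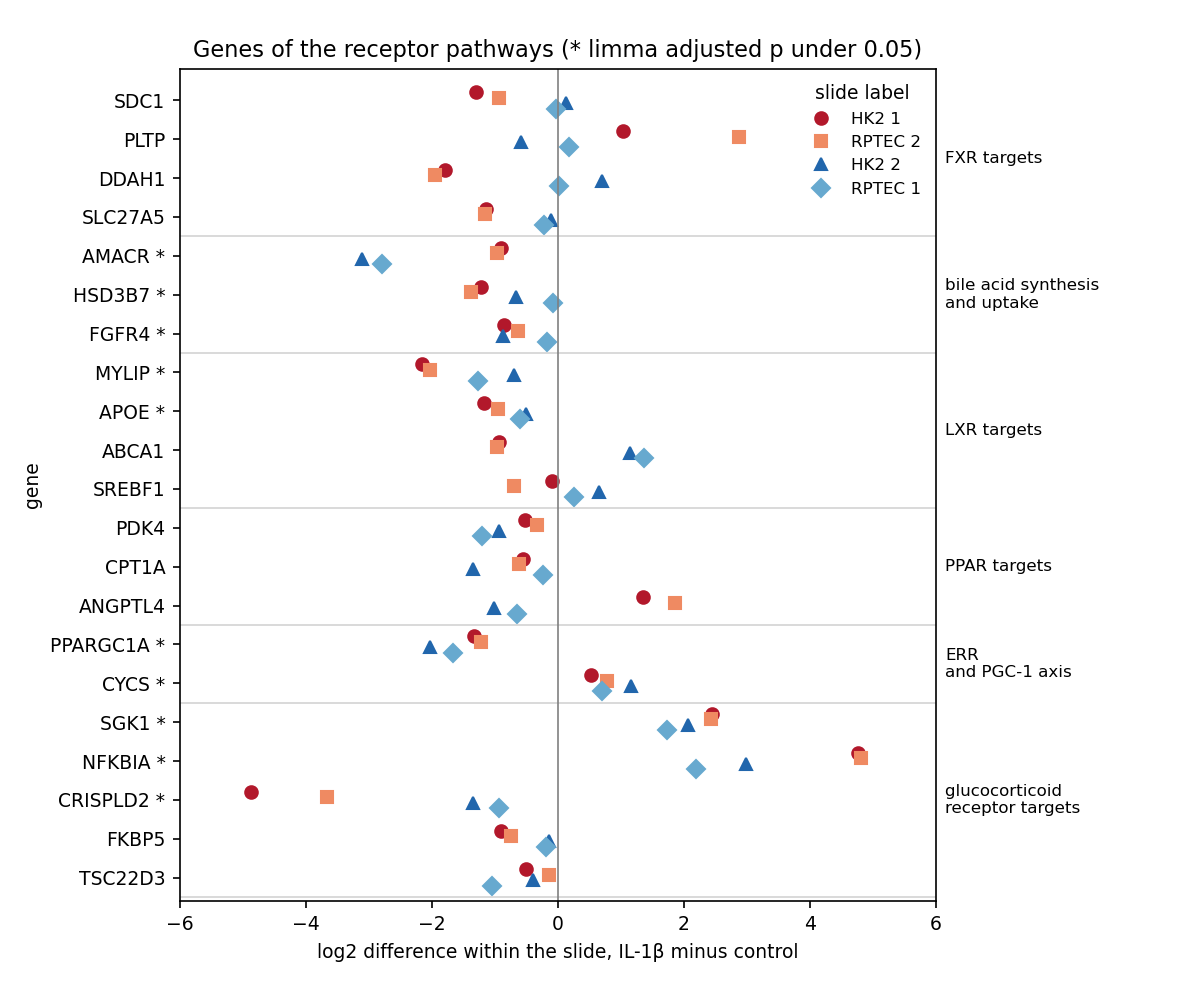
Difference between the IL-1β and the control array of the same slide on the log2 scale for named genes of 6 receptor pathway lists. Each point is a slide, and an asterisk marks an adjusted p under 0.05 by limma over all genes. SGK1 and NFKBIA lie above 0 and PPARGC1A, MYLIP and APOE below 0 on all 4 slides, whereas ABCA1 and ANGPTL4 have the HK2 1 and RPTEC 2 slides on one side of 0 and the others on the opposite side.

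Other nuclear receptors were examined as a list of 38, of which 22 could be tested. With IL-1β limma called 1 higher and 3 lower, beside 4.52% and 7.91% of all genes, and with Empa 0 (2 at an unadjusted p under 0.05). NR2F1, an orphan receptor of the COUP-TF family, fell by 1.60 on the log2 scale (adjusted p = 0.0157), with -2.42 and -2.54 in slide pair A and -0.39 and -1.03 in slide pair B. THRA, a thyroid hormone receptor, fell by 1.32 (adjusted p = 0.00597, 0.0683 without the RPTEC 2 slide). NR1D1, the clock repressor REV-ERBα, fell by 0.85 (adjusted p = 0.0381). Its relative NR1D2, named after its value was seen, rose by 0.66 (adjusted p = 0.0466). NR2F1 stayed past the threshold in 10 and NR1D1 in 4 of 16 fits that left out an array or a slide. HNF4A, a receptor that defines differentiated proximal tubule, and the xenobiotic receptors NR1I2 and NR1I3 were well above background on no array. The median of the 22 with IL-1β was -0.29 beside -0.11 over all genes.

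Across the 8 pathway lists 93 of 148 genes could be tested, and for IL-1β limma called 16, 5 higher and 11 lower, beside 12.4% of all genes (4.52% higher and 7.91% lower), with 34 at an unadjusted p under 0.05. For Empa it called 0, with 11 at an unadjusted p under 0.05. The IL-1β count was 18 within slide pair A, beside 15.9% of all genes, and 15 within slide pair B, beside 11.2%. It was 4 without the RPTEC 2 slide, 7 without the HK2 2 slide, 9 without the RPTEC 1 slide and 10 without the HK2 1 slide. It was 7 without the control or the IL-1β array RPTEC 2, 8 without the control array HK2 1, 10 without the IL-1β array HK2 1 or the control array HK2 2, and 26 without the Empa array HK2 1.

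The genes whose 8 within-slide differences followed those of NR1H4 most closely were named by Pearson's correlation among 12607 genes well above background on all arrays. They were NAB1 (r = 0.984), EVA1A (r = 0.980), SEC24D (r = 0.980), PPP1R3B (r = 0.976) and GNG11 (r = 0.976). The 8 differences share 4 control arrays and consist of 4 with IL-1β and 4 with Empa, so r is a description. NAB1, a corepressor of EGR factors, differed by 1.55 with IL-1β and by 0.17 with Empa, and was thus above control on average with both. PPP1R3B, a glycogen-targeting phosphatase subunit, was below control with Empa on all 4 slides, with a mean of -0.46, and it differed by 0.42 with IL-1β. EVA1A was also below control with Empa on all 4 slides, by 0.04 to 0.33 with a mean of -0.16, and it differed by 1.13 with IL-1β. SEC24D was above control with Empa on all 4 slides, with a mean of 0.11, and it differed by 0.86 with IL-1β. GNG11 was above control with Empa on the HK2 1 slide (0.37) and below it on the others, and it differed by 1.69 with IL-1β. Among the other receptors in the fit, which left out NR0B2, r with NR1H4 was lowest for NR1H3 (-0.895) and highest for ESRRA (0.688). NR1H3 was opposite to NR1H4 with IL-1β only. With Empa it was below control on 3 slides, and NR1H4 was below control on all 4.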

How the data were processed

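The 12 arrays were read by the authors with Agilent Feature Extraction 9.5.3.1, and the deposited intensities are, per the file headers, background-subtracted signals, each array on its own scale. A second deposited file holds log2 values, named by the authors as quantile normalized, with 44473 entries per array and column medians between 6.65 and 8.31. It ran in the same direction as the scanner signals (Spearman correlation 0.986 to 0.994), and its offset and centring are not given in the sources used here. It served as an alternative.

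Control spots were left out of 44495, which left 43118 spots of 34127 probes. Outlier spots were dropped, spots averaged, and a value required on all 12 arrays (33483 probes). Signals were scaled to the 75th percentile of each array over its non-control spots, raised to at least 1 signal unit and log2-transformed. Before this step 11.5% to 16.2% of signals were at or below 0. A gene was given by its brightest probe among those that both arrays of some group measured well above background (15717 genes). For the 10 receptors, the brightest probe was used even where it failed this filter.

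limma 3.58.1 in R 4.3.3 was fitted with slide and treatment (6 residual degrees of freedom), Benjamini-Hochberg adjustment and a threshold of 0.05. Slide is in the fit because each slide holds 1 array of every treatment. Arrays of one slide deviated together from their group means (r from 0.592 to 0.906), but the 12 pairs hold 6 distinct values, since both arrays of a group deviate by the same amount in opposite directions, and crossed line labels would give such values too, so they do not show a pairing by number. Each slide was scanned on its own, and slides of one replicate number share a scan day. A lower bound ("at least") sets the brighter array against the higher of the dim probe's own signal and the lowest signal well above background on that array. On simulated data with 15717 genes, 84% of changes of 2 and 38% of changes of 1 on the log2 scale were recovered, with 2 false calls. The number of arrays limits the precision.

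The receptors and the lists were chosen with earlier results of these data known. Named genes were the 10 receptors, 16 pathway genes fixed by name, the 3 largest calls of each of 8 pathway lists for each treatment, and the 5 genes most like NR1H4. Some genes beyond these, KLF9 among them, are marked as named after their values were seen. The alternatives were other designs, scalings, floors, filters and probes, each array or slide left out, the slides of a line label alone, and an unpaired t-test that the methods name for other assays. Fits of the slide pairs were added after the data were seen.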

Additional observations from a re-analysis of the deposited data

Results flagged for a closer look

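With IL-1β, NR3C1 was above control on the slides labelled HK2 (0.04 and 0.41 on the log2 scale) and below it on those labelled RPTEC (-0.15 and -0.20), a difference between the labels of -0.40. In the authors' table the HK2 1 slide was also below control (-0.10), which ends this split. With Empa, PPARA was below control on the slides labelled HK2 (-0.52 and -0.04) and above it on those labelled RPTEC (0.18 and 0.19), a difference of 0.46. With quantile normalization the HK2 2 slide was above control (0.02). Each was picked out because all slides of one label moved one way and all slides of the other the opposite way, and limma's test of the difference between the labels gave an adjusted p of 1 for each.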

How the results depend on the processing

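The fit with no replicate block put the line labels in place of the slides, with an effect for each label. IL-1β called 8 genes in it, the pathway lists 0 and Empa 0. With a replicate block and line-specific effects the counts were 864, 6 and 0. Each label joins a slide of pair A with one of pair B, which were unlike in level. The part of this in the low counts by label was not tested. Empa called 0 genes with normexp, the authors' table, a floor of 5 signal units, dim probes kept, probes required above background on 12 arrays, the slides labelled RPTEC and either slide pair, and 3 with the slides labelled HK2. IL-1β called 47 genes on the slides labelled HK2 and 0 on those labelled RPTEC, with 1 and 0 in the lists, which held 10 with no filter on dim probes. The methods' t-test called 0 genes after adjustment for IL-1β and Empa under either label (657 and 417 at the unadjusted threshold for IL-1β, 375 and 210 for Empa, HK2 first). Leaving out an array or a slide gave 445 to 2963 genes for IL-1β, 0 to 1 for Empa and 4 to 26 in the lists. The NR1H4 difference with Empa moved to -0.81 (normexp) and -0.78 (the authors' table), and that with IL-1β to 1.29 and 1.30. The dim other probes gave 0.25 for PPARA and 0.20 for PPARD with IL-1β, opposite in sign to the probes used. Beyond fewer arrays or genes in a fit, the cause was not tested. Of 604 values of the receptors under alternatives, 600 kept within the spread between slides, and nothing is read from this count. Other filters leave these values as they are, and a slide left out is one of those that set the spread. The spread is also wide for some genes, with an SD of 1.49 for NR0B2 and 1.04 for PPARG with IL-1β. Dim probes (NR0B2, the other PPARA and PPARD probes) limit what can be read.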
